A study of Mus musculus with 6 samples.

Results

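The long-chain acyl-CoA synthetases are a family of 6 genes here, Acsl1, Acsl3, Acsl4, Acsl5, Acsl6 and Acsbg1, read in whole mouse lung at E18.5, shortly before birth. Members are all probe sets whose only symbol in the Mouse430_2 annotation is one of these names, and the rule found 10 such probe sets among 45037. They cover 5 of the 18193 genes named in this way: 3 probe sets for Acsl3, 3 for Acsl4, 1 for Acsl5, 2 for Acsl6 and 1 for Acsbg1. No probe set carries Acsl1 as its single symbol, so Acsl1 is not analysed here. The series holds 6 single-colour MOE430 V2 arrays, 3 of Scap-deleted lungs and 3 of controls. In the Scap-deleted group the gene Scap, encoding the SREBP cleavage-activating protein, had been removed from respiratory epithelial cells (Scap d/d); the control group carries no further genotype in the labels, and both groups share a mixed FVB/N and B6 strain background. The promoter that drives the recombinase, the sex of the fetuses and whether each array is 1 fetus are not given in the sources used here, so the p-values describe the spread of these arrays alone, and that spread could be technical.

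These enzymes join a free long-chain fatty acid to coenzyme A, the step that traps the fatty acid in the cell and makes it usable. The acyl-CoA product then goes to membrane and storage lipids, to chain elongation and desaturation, or into mitochondria for oxidation. Family members differ in where they sit and what they prefer: Acsl3 is tied to the endoplasmic reticulum and growing lipid droplets, Acsl4 favours arachidonate and other polyunsaturated fatty acids, Acsl5 is found in mitochondria and endoplasmic reticulum, Acsl6 is best known from brain and red blood cell precursors, and Acsbg1, the bubblegum synthetase, from brain, adrenal gland and testis. In the lung, acyl-CoA is the raw material of surfactant phospholipid. Scap escorts the SREBP transcription factors to their cleavage in the Golgi, and SREBPs switch on genes of fatty acid and sterol synthesis.

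Acsl4 and Acsl3 transcripts read lower in Scap-deleted lungs, at 62.6% to 78.0% and 60.7% to 74.5% of control over their tested probe sets, and Acsl5 read 91.1% of control. No member passed the test after adjustment over all 22519 probe sets tested, where 0 probe sets passed in all (0% called); the smallest adjusted p of any probe set was 0.128. Before adjustment, 5 of the 6 tested member probe sets read lower at a limma p under 0.05, a mark that 2.64% of all tested probe sets reached in that direction and 2.6% in the other. That count was 3 without control replicate 3, without Scap_deleted replicate 1 or without Scap_deleted replicate 2, and 4 without any other single array or without both arrays numbered 3. In 4 of the 6 every Scap-deleted array lay below every control array, against 5.23% of all tested probe sets, with 5.3% lying wholly above. All 6 differences were negative, with a median of -0.52 on the log2 scale, beside 0.01 over all tested probe sets. These 6 probe sets read only 3 genes on the same arrays, so the counts are not independent. With the brightest probe set per gene, 2 of the 3 genes were lower at a limma p under 0.05, against 3.04% of all genes. The median of the 3 was then -0.36, or 78.0% of control.

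The start regions of the members with tested probe sets are shown to compare the transcripts that read lower (Acsl3, Acsl4) with the one nearer to control (Acsl5). The ratio tests given below do not settle whether Acsl5 differs from Acsl3 or Acsl4 in its response. RefSeq gives promoter windows of 250 bases before to 50 bases after an annotated start for all 6 genes, 9 windows in total, on build GRCm38.p6. The Acsl3 window is chr1:78657575-78657874 on the plus strand, that of Acsl4 is chrX:142390486-142390785 on the minus strand, and that of Acsl5 is chr19:55253119-55253418 on the plus strand. Each is printed 5′ to 3′, with capitals for matches to the NF-Y box or the GC box on either strand.
Acsl3: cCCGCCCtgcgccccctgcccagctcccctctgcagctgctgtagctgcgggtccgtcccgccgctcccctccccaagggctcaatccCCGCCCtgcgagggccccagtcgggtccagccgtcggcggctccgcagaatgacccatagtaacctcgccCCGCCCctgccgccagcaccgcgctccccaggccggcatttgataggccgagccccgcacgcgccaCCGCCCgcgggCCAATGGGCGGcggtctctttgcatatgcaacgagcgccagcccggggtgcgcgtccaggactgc
Acsl4: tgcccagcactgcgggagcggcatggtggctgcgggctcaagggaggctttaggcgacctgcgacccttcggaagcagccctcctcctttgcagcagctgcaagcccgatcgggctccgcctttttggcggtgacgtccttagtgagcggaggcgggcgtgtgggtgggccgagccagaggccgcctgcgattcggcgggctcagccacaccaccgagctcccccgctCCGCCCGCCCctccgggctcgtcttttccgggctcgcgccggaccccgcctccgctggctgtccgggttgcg
Acsl5: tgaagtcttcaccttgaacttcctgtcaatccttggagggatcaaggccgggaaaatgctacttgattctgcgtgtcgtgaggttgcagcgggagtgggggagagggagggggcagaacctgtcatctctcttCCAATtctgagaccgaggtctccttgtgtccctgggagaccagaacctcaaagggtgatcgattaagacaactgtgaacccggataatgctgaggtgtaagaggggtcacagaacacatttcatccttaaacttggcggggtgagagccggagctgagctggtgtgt

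The motifs searched on both strands were the sterol regulatory element TCACNCCAC, the E-box CACGTG, the NF-Y box CCAAT (called the CCAAT box here) and the GC box GGGCGG. Of 32851 RefSeq windows of this length, 1.24% held the sterol regulatory element, 7.15% the E-box, 37.4% the CCAAT box and 35.7% the GC box. The Acsl3 window held 5 GC boxes and 1 CCAAT box. The CCAAT box lay from -15 to -11 relative to the start, and the nearest GC box directly followed it, from -10 to -5. In the Acsl4 window there were 2 GC boxes, from -22 to -17 and from -18 to -13, which overlap each other, and no CCAAT box. Acsl5 had 1 CCAAT box, from -117 to -113, and no GC box. None of these 3 windows held the sterol regulatory element or the E-box letters. Among all 9 windows the sterol element occurred once, in the second of 2 Acsl1 windows, from -76 to -68. A match is a string of letters in a short window and describes neither binding nor its absence.

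**Figure D1:**
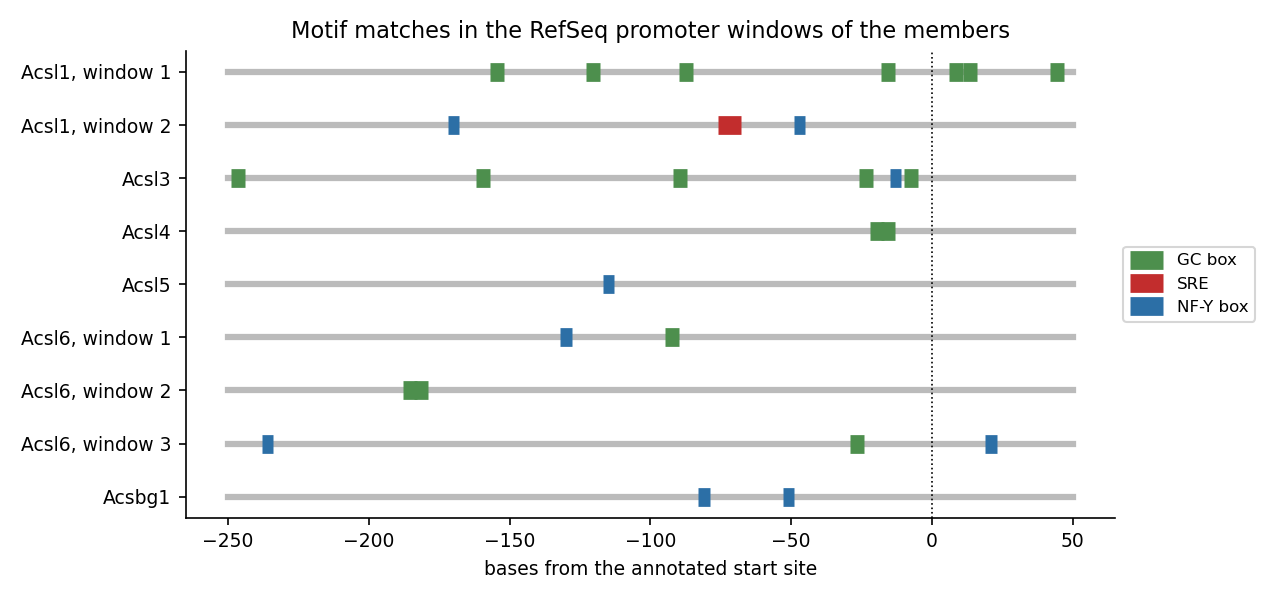
Motif matches in the 9 RefSeq promoter windows of the members, by distance in bases from the annotated start site (dotted line). Grey bars are windows from 250 bases before to 50 after the start; green marks are GC boxes, blue marks NF-Y boxes and the red mark the sterol regulatory element (SRE), which is in Acsl1 window 2 alone.

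Acsl4 was lower in all 3 of its probe sets, with no overlap between the groups in any of them. The brightest, 1433531_at, read 5744.5, 6235.3 and 5311.8 in the controls, in the order of their numbers, and 4181.9, 4393 and 4905.5 in the Scap-deleted lungs. Every Scap-deleted array was below the lowest control, although Scap-deleted replicate 3 stood at 92.4% of control replicate 3. The means were 5764 ± 462 and 4493 ± 372 signal units (SD, n = 3), a log2 difference of -0.36 (SE 0.11, limma adjusted p = 0.889).

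The Acsl4 probe set 1451828_a_at, whose suffix marks probes shared by alternative transcripts of 1 gene, gave the smallest p of the family. It read 1178.6, 1126.5 and 1093.2 in controls and 662.3, 660 and 814.8 in Scap-deleted lungs. The controls spanned a narrow range, and the highest Scap-deleted array lay well below the lowest of them. Means of 1133 ± 43.0 and 712.4 ± 88.7 (SD, n = 3) gave a log2 difference of -0.68 (SE 0.12), or 62.6% of control. It ranked 24 of 22519 by limma p, with an adjusted p of 0.652 (0.443 with the replicate number as a block). Leaving out any 1 array gave log2 differences from -0.78 to -0.62.

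The third Acsl4 probe set, 1418911_s_at, has a suffix that marks probes which can also match transcripts of another gene. It read 1952.6, 1553.3 and 2563.4 in controls and 1337.9, 1225.9 and 1293.8 in Scap-deleted lungs, so the spread lay almost wholly among the controls. The log2 difference was -0.62 (SE 0.18, limma adjusted p = 0.864), and it shrank to -0.44 without control replicate 3, the highest array. Exact two-sided permutation tests gave p = 0.1 for each of the 3 Acsl4 probe sets, the lowest value possible with 3 arrays a group. Because the groups did not overlap, the Scap-deleted sample was bound to read lower in every same-numbered pair. Over the 3 probe sets it stood at 50.5% to 92.4% of its control.

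Acsl3 was lower on average in all 3 of its probe sets, with overlap in 1. The brightest, 1452771_s_at, has a suffix that marks probes which can also match transcripts of another gene. Acsl3 was read by this probe set alone in the brightest-per-gene count, the ratios between genes and the search for parallel genes. The probe set read 2349.9, 1777.4 and 2170.3 in controls and 1356, 1560.7 and 1773 in Scap-deleted lungs. The groups did not overlap, but the gap was nearly nil, with Scap-deleted replicate 3 just below control replicate 2. Means of 2099 ± 293 and 1563 ± 209 (SD, n = 3) gave a log2 difference of -0.42 (SE 0.15, limma adjusted p = 0.913), which ranged from -0.54 to -0.33 when single arrays were left out.

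Probe set 1428386_at of Acsl3 read 885.5, 1084.4 and 984.5 in controls and 902.8, 511.2 and 458.2 in Scap-deleted lungs. Scap-deleted replicate 1 stood within the controls, and the other 2 Scap-deleted arrays stood far below them, at 47.1% and 46.5% of the control with the same number. Its log2 difference of -0.72 (SE 0.25, limma adjusted p = 0.913) became -1.02 without that array. The dimmest Acsl3 probe set, 1428387_at, lay below the limit for testing, a mean signal of 497.8. It read 274.3, 262.2 and 209.6 in controls and 145.3, 179.1 and 158.4 in Scap-deleted lungs. The groups did not overlap there either, as in 7.47% of probe sets below the limit that were lower in this way. Within Acsl3 the probe sets disagree on array order: Scap-deleted replicate 1 was the lowest array for 1452771_s_at and 1428387_at and the highest of its group for 1428386_at.

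Acsl5 was the nearest to control among the tested genes. It read 11177.5, 10654.4 and 13048 in controls and 10072.7, 10163.1 and 11457.5 in Scap-deleted lungs. Scap-deleted replicate 3 exceeded control replicates 1 and 2, so the groups overlapped, while each Scap-deleted sample was below the control of its number. The log2 difference was -0.14 (SE 0.12, 95% interval -0.42 to 0.15, limma adjusted p = 0.956), and was -0.05 without control replicate 3. In both groups the array numbered 3 read highest. Those arrays also stood apart from the others across all tested probe sets, on a first principal component holding 36.2% of the variance.

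**Figure D2:**
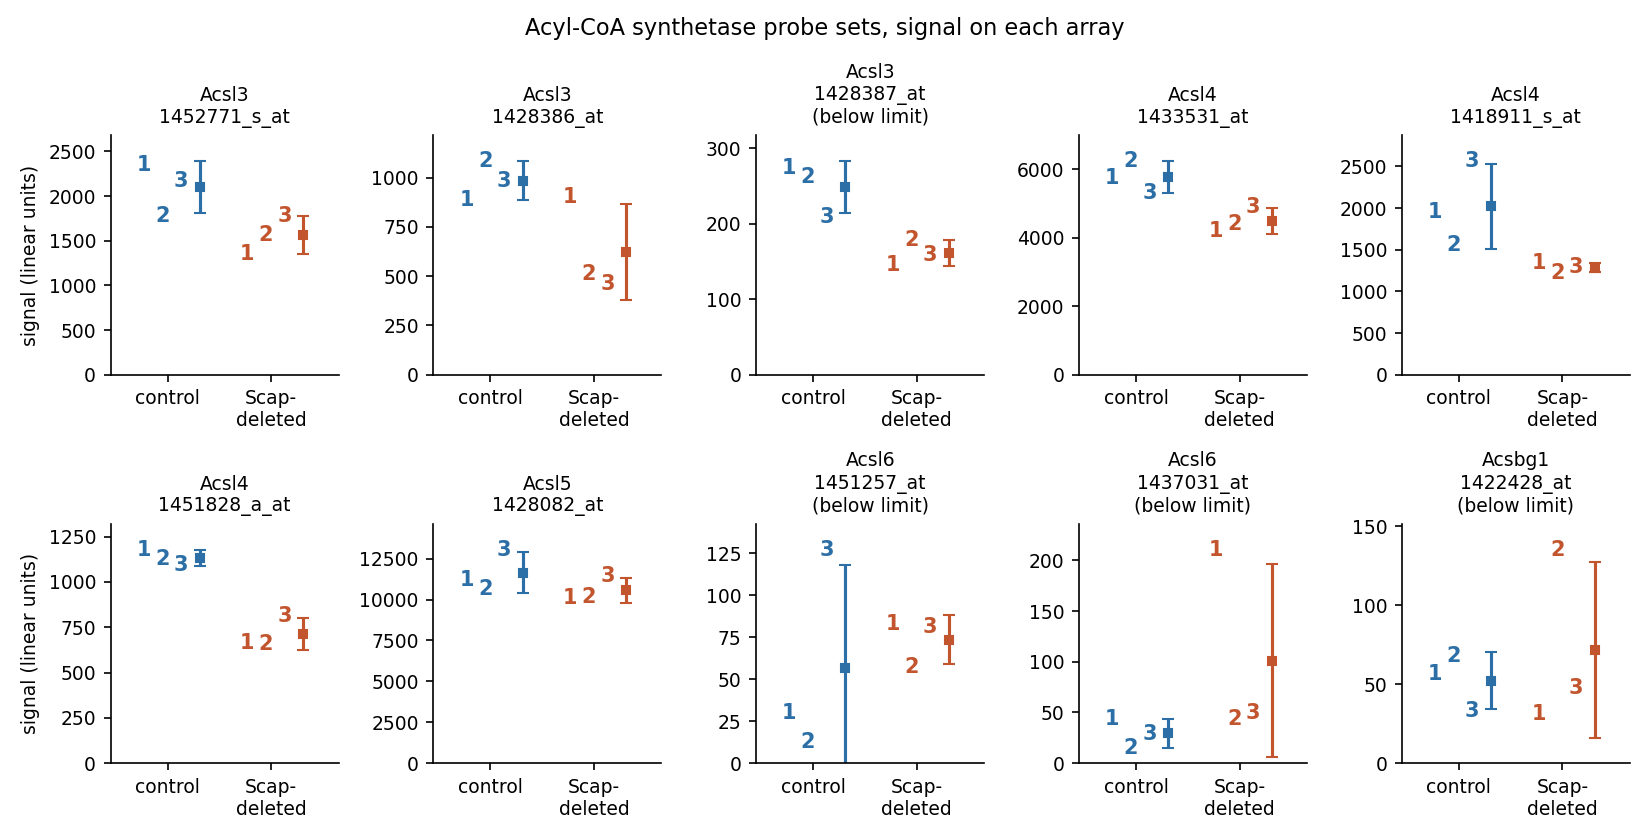
Signal (linear units) of the 10 probe sets of Acsl3, Acsl4, Acsl5, Acsl6 and Acsbg1 on each array. Digits are replicate numbers in control (blue) and Scap-deleted (red) lungs, squares with bars are means ± SD (n = 3), axes start at 0, where 1 bar is cut off, and panels marked below limit were not tested; all 3 Acsl4 panels show the Scap-deleted arrays beneath every control.

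Acsl6 and Acsbg1 were near the floor of the array and were not tested. On 1451257_at, Acsl6 ranged from 12.9 to 127.3 among controls and from 57.1 to 82.9 among Scap-deleted lungs; on 1437031_at the ranges were 15.3 to 43.9 and 43.2 to 210.6. The groups overlapped in both, and 1 array set each wide range: control replicate 3 on the first and Scap-deleted replicate 1 on the second. Acsbg1 read 56.2, 67.9 and 32.8 in controls and 31.4, 135.3 and 47.8 in Scap-deleted lungs, again with overlap. Without detection calls, it is not known if signals this low lie above background. Acsl6 is known from red blood cell precursors. Of 8 listed erythroid genes 4 had a probe set and 2 were tested. Alas2, the first enzyme of haem synthesis in those cells, averaged 14978 and 12090 signal units in controls and Scap-deleted lungs, and Slc4a1 2646 and 2349. Hba-a1 and Klf1 lay below the limit for testing. Whether the Acsl6 signal comes from such cells was not tested.

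Whether members differed from one another in their response was tested on ratios within each array, between the brightest probe sets of the 3 tested genes. The log2 ratio of Acsl3 to Acsl4 differed between groups by -0.06 (SE 0.18, 95% interval -0.56 to 0.44, exact permutation p = 0.8). That of Acsl3 to Acsl5 was lower in Scap-deleted samples, without overlap, and differed by -0.29 (SE 0.13, 95% interval -0.65 to 0.07, exact permutation p = 0.1, adjusted p = 0.3 over 3 pairs). Acsl4 against Acsl5 gave -0.22 (SE 0.15, 95% interval -0.65 to 0.20, exact permutation p = 0.4, adjusted p = 0.6). The exact test cannot go below 0.1 with 3 arrays a group, so it settles neither a difference nor its absence. Among probe sets of the same gene, the ratio of 1451828_a_at to 1433531_at of Acsl4 was lower in Scap-deleted lungs by a log2 difference of -0.32, with no overlap (exact permutation p = 0.1). The other 3 such ratios, 1 in Acsl3 and 2 in Acsl4, overlapped between groups (exact permutation p = 0.5 to 1).

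**Figure D3:**
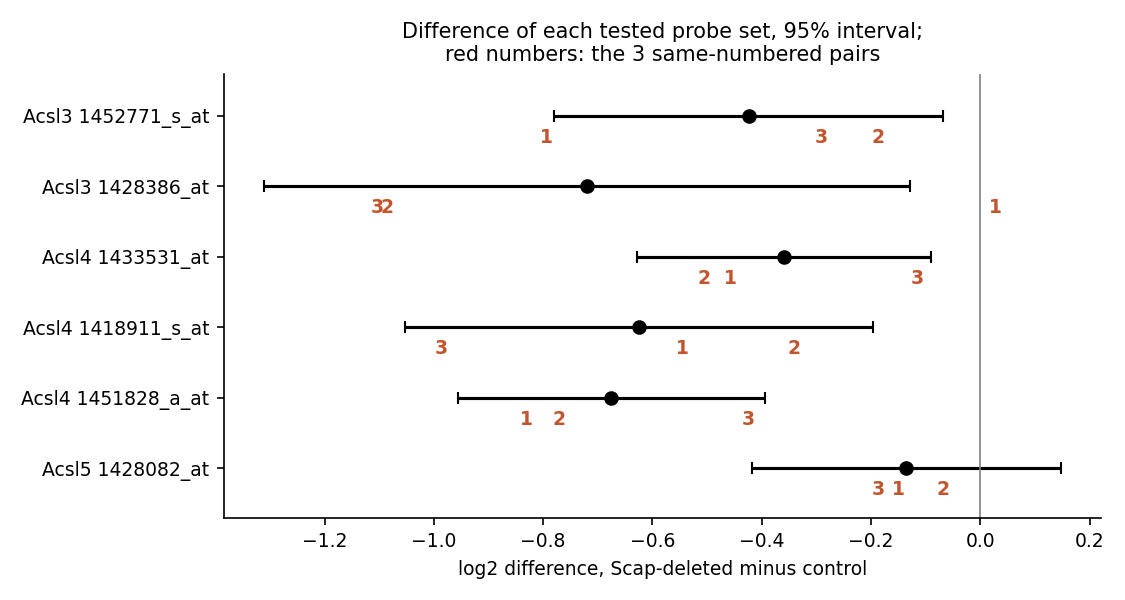
Log2 difference (Scap-deleted minus control, x axis) of each of the 6 tested probe sets (rows), as black points with the 95% interval of the limma fit. Red digits below each point are the differences of the 3 same-numbered pairs; they lie below 0 except for pair 1 of Acsl3 1428386_at, and the unadjusted intervals exclude 0 except for Acsl5.

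Genes that supply, bind and use acyl-CoA were listed by role, each gene read by its brightest probe set and tested among 10972 genes. Of 84 listed genes 53 were tested, and none passed after adjustment, where 0.00911% of all genes (1 gene) did. The fatty acid synthesis and desaturation list, which also holds elongases, read lowest. All 10 tested genes were negative, and their median was 76.9% of control beside 100.4% over all genes. On the log2 scale this median was -0.38; it was -0.24 without Scap_deleted replicate 1 and -0.64 with the mean of probe sets per gene. In 5 of the 10 a limma p under 0.05 was reached and the groups did not overlap, against 3.04% and 5.72% of all genes in that direction. Scd1, a stearoyl-CoA desaturase, read 44718, 34231 and 40902 in controls and 4018, 13085 and 5389 in Scap-deleted lungs, 16.5% of control (limma adjusted p = 0.319). Scd2, another stearoyl-CoA desaturase, averaged 75929 signal units in controls and 52334 in Scap-deleted lungs. It stood at 68.9% and Fasn, the fatty acid synthase, at 59.8% of control. The other 2 of the 5, named after their values were seen, were Fads1, a desaturase of polyunsaturated fatty acids, at 69.0% (its other tested probe set read 100.5%), and Acaca, an acetyl-CoA carboxylase, at 78.2%. Insig1, the SREBP-induced anchor of Scap, stood at a log2 difference of -1.30 (SE 0.17, limma adjusted p = 0.271).

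Among the other acyl-CoA synthetases, 7 of 18 listed genes were tested, 5 negative and 2 positive, with a median at 93.6% of control. Slc27a1, a fatty acid transport protein with very long-chain synthetase activity, was the only one with a limma p under 0.05 and lay in the opposite direction to Acsl3 and Acsl4. It read 896.8, 899.3 and 920 in controls and 970.8, 1182.2 and 1183.2 in Scap-deleted lungs, 122.3% of control with no overlap (limma adjusted p = 0.793); of all genes, 2.88% were higher at that p and 6.11% higher without overlap. Slc27a4, its relative, had a log2 difference of 0.18 (SE 0.12), and Aacs, which activates acetoacetate for lipid synthesis, one of -0.26 (SE 0.20). Of the acyl-CoA binding proteins, 3 of 5 tested were negative. Dbi, the small cytosolic acyl-CoA carrier, read 16540, 18941 and 16453 in controls and 12865, 14430 and 11858 in Scap-deleted lungs, 75.3% of control with no overlap (limma adjusted p = 0.731), although its other 3 tested probe sets ranged from 66.0% to 105%. Acbd5, a peroxisomal acyl-CoA binding protein, differed by 0.20 (SE 0.11) and Acbd6 by -0.17 (SE 0.13) on the log2 scale, while the other tested Acbd6 probe set read 104.8% of control.

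Thioesterases, which undo the synthetase reaction, were split, with 4 of 9 tested genes negative and a median at 101.0% of control. Acot2, a mitochondrial thioesterase, stood at 125.3% of control with no overlap (limma adjusted p = 0.808), and its close relative Acot1, cytosolic, at 87.2% with no overlap the other way. These 2 genes are so alike that probes may read both. Acot13 had a log2 difference of -0.23 (SE 0.16). Mitochondrial import genes, which take acyl-CoA towards oxidation, had 4 of 6 negative and a median at 96.2%, with 0 at a limma p under 0.05. Crat, carnitine acetyltransferase, stood at 87.4% (its other tested probe set read 146.2%), Slc25a20, the carnitine carrier, differed by 0.23 (SE 0.13) and Cpt2 by -0.23 (SE 0.27) on the log2 scale.

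The acyltransferases that place acyl-CoA into glycerolipids had 10 of 16 tested genes negative and a median at 96.3% of control, with 2 lower at a limma p under 0.05. Lpcat1, which remodels surfactant phosphatidylcholine, read 46006, 42258 and 46923 in controls and 31287, 33856 and 36378 in Scap-deleted lungs, without overlap; on the log2 scale the means differed by -0.41 (limma adjusted p = 0.671). Gpam, the mitochondrial enzyme that starts glycerolipid synthesis, stood at 82.1% with no overlap, and Dgat2, which completes triglycerides, had a log2 difference of -0.24 (SE 0.11). Acsl genes are also known targets of PPAR receptors. Of 12 listed PPAR target genes 7 were tested, 4 negative and 3 positive, with a median at 98.2% of control and 0 at a limma p under 0.05. With the replicate number as a block, 4.52% of all genes were lower and 4.18% higher at a limma p under 0.05. In that fit the PPAR targets had 1 gene (Angptl4, higher), the thioesterases 1 lower (Acot13) beside Acot2, and the acyltransferases 1 in place of 2, without Gpam; the counts of the other pathway lists were as given. Angptl4 differed by 0.29 (SE 0.17), Pdk4 by -0.25 (SE 0.19) and Plin2 by -0.13 (SE 0.11) on the log2 scale.

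**Figure D4:**
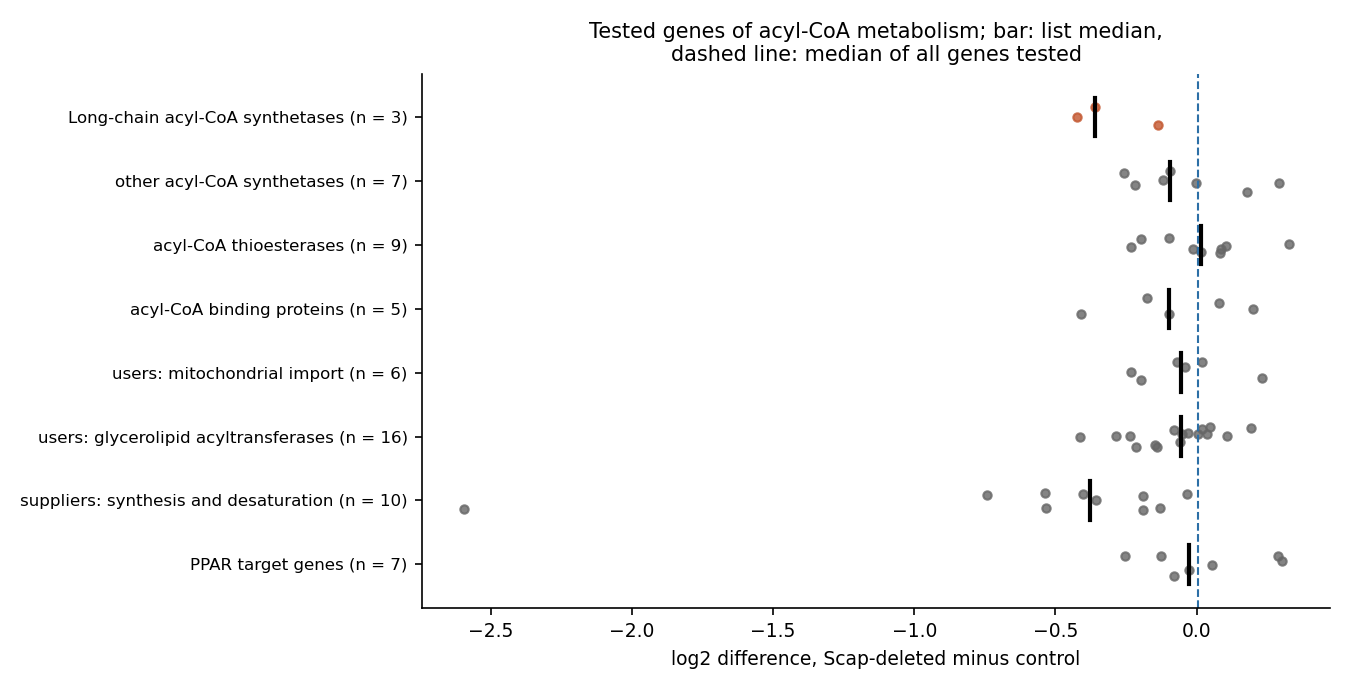
Log2 difference (Scap-deleted minus control) of every tested gene in the lists of acyl-CoA metabolism, 1 point per gene read by its brightest probe set; n is the number of tested genes. Black bars are list medians and the dashed line the median of all 10972 genes; the synthesis and desaturation list (10 genes) lies wholly below 0, Scd1 farthest, while thioesterases lie on both sides.

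Whole lung mixes many cell types, and fewer cells of a type cannot be told apart from less RNA per cell. Scap itself averaged 4846 ± 2167 signal units among controls against 2612 ± 724 after deletion (SD, n = 3), with overlap. The alveolar type II list had a probe set for 8 of 9 genes, 6 of them negative. Its summed signal ran from 304086 to 376514 among controls and from 272889 to 326897 among Scap-deleted lungs. Its defining gene Sftpc, surfactant protein C, stood at 100.6%. Sftpc read 80060 to 106271 in controls, whose highest signals of any probe set were 101398.5 to 128538. Whether so bright a signal can show a difference was not tested. The median of the type II list was 89.8% of control. In 3 of its 8 genes a limma p under 0.05 was reached in the lower direction, the most of any marker list, against 3.04% of all genes. They were Sftpa1 at 45.5% without overlap, Sftpb at 76.5% and Abca3, the lamellar body lipid pump, at 63.9%, both with overlap. The other 2 tested probe sets of Abca3 read 66.1% and 119.6% of control. For the other cell types, medians stood at 84.5% of control for club cell genes (3 tested), 98.0% for ciliated (3), 103.9% for alveolar type I (5), 86.5% for endothelium (5), 93.5% for lipofibroblasts (4), 106.5% for smooth muscle (4), 108.5% for leukocytes (4), 83.8% for erythroid cells (2), 94.7% for nerve and neuroendocrine cells (2), 110.0% for heart muscle (4) and 91.4% for mesothelium (3). Of 4 brown fat genes only Fabp4 was bright enough to test, at 123.4%, and Ucp1, which defines that tissue, averaged 28.1 and 16.1. The part of these cell types in the Acsl3 and Acsl4 differences was not tested.

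Liver transcripts were high on 2 control arrays and a heart transcript on 1 Scap-deleted array. The 4 liver genes summed to 3035, 9385 and 578.8 in the controls, in order of number, and to 354.9 to 502.7 in Scap-deleted lungs, with Afp, fetal liver's alpha-fetoprotein, highest in control replicate 2 at 6700 and Alb, serum albumin, highest in control replicate 1 at 1800. Without control replicate 2 the 3 Acsl4 probe sets gave log2 differences of -0.30, -0.80 and -0.68, and Acsl3 1452771_s_at gave -0.54. Without control replicate 1 they were -0.36, -0.63 and -0.65, and -0.34 for Acsl3 1452771_s_at. Control replicate 3 had the lowest liver sum of the controls. The groups did not overlap on these 4 probe sets, so every control there read above every Scap-deleted array. Acsl3 1428386_at, where the groups overlapped, gave -0.65 without control replicate 2 and -0.79 without control replicate 1. Nppa, the atrial natriuretic peptide, read 11125 in Scap-deleted replicate 1 and 350.4 at most elsewhere. Without that array the Acsl4 values were -0.31, -0.65 and -0.63, Acsl3 1452771_s_at gave -0.33 and Acsl3 1428386_at gave -1.02. The part of liver or heart tissue in these differences was not tested.

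The genes whose log2 signal ran most nearly parallel to each tested member over the 6 arrays were named as a description, out of 10650 genes. For Acsl3 they were Dnah6, an axonemal dynein (Pearson r = 0.993), Cyb5b, an outer mitochondrial cytochrome b5 (0.993), and Stk36, a kinase needed by motile cilia (0.989). For Acsl4 they were Reep3 (0.993), Rnf34 (0.986) and Prr18 (0.986). Acsl5 ran with Ntn1, the secreted guidance factor netrin (0.995), Apoc1, an apolipoprotein (0.994), and Ubxn11 (0.989). With so few arrays such values are common: 106, 63 and 237 genes had an r above 0.9 with Acsl3, Acsl4 and Acsl5. Apoc1 read 5749 in control replicate 3 and 3480 in Scap-deleted replicate 3, against 1665 to 2699 elsewhere, so it shared with Acsl5 the high values of the arrays numbered 3.

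**Figure D5:**
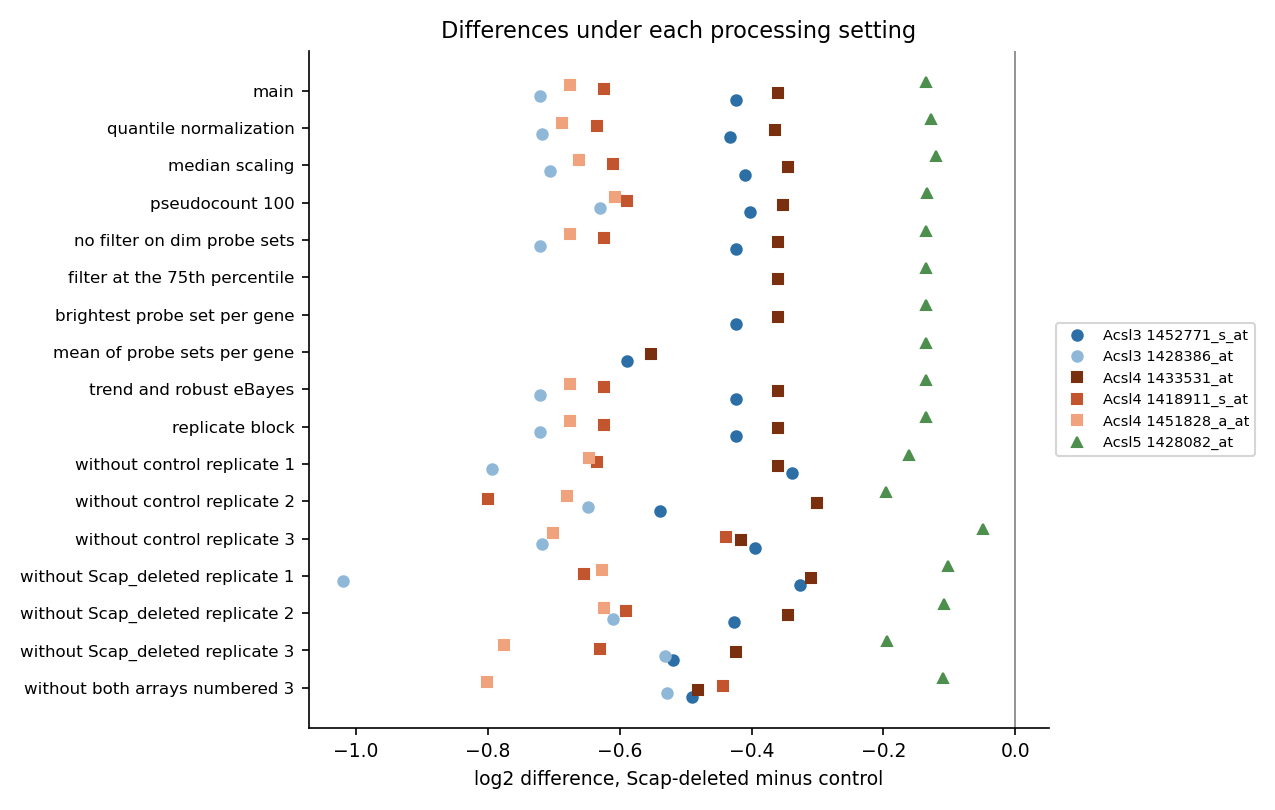
Log2 difference (Scap-deleted minus control, x axis) of the 6 tested probe sets under each processing setting (rows); main is the setting reported. All points lie below 0, Acsl5 (triangles) nearest to it, and Acsl3 1428386_at (light circles) moves farthest, to -1.02 without Scap_deleted replicate 1. Some settings keep only the brighter probe sets. In the row for the mean of probe sets per gene, points are gene means drawn under the brightest probe set.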

How the data were processed

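Total RNA of whole lung was hybridised to 6 Affymetrix MOE430 V2 arrays. The deposited values are linear intensity, with 45101 probe sets an array. The submitters' processing notes name RMA, but the deposited values are linear, reach 0.2 and differ in column median (490.9 to 530.5), with a 2% trimmed mean of 1500 on every array; no source used here gives the scaling software or background correction.

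Deposited signals were turned to log2 with no pseudocount. After 64 control probe sets had been dropped, 45037 remained, of which 34945 had 1 gene symbol, 932 several and 9160 none. Probe sets with a mean log2 signal at or above the median (a signal of 497.8) were tested, 22519 in all, by limma 3.58.1 (lmFit, then eBayes) under R 4.3.3; p-values were adjusted by Benjamini-Hochberg over them. Lists of other genes used the brightest probe set per gene, 10972 genes. Single values were compared by exact two-sided permutation. Tested on simulated data for this comparison (22519 probe sets, 200 changed, independent normal noise), the fit recovered 63.2% of log2 changes of 1 and 93.1% of changes of 2. The differences of the tested member probe sets, -0.14 to -0.72, were smaller than either size. These shares therefore do not say how often differences of the members' size would be called. They also may not hold for the deposited data, where 0 probe sets were called and Scd1, at a log2 difference of -2.60, was not.

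All members and their probe sets are named, with up to 3 genes of smallest p from each pathway list, the 3 genes of highest Pearson r with each tested member, and Scap, Insig1, Fasn and Scd1. Fads1, Acaca and the single marker genes were picked with their values in view. The members and lists were chosen with earlier results of these data known. Same-numbered samples correlated in their deviations from the group means at 0.20, 0.28 and 0.41 across probe sets. The numbers given in the titles were therefore used to show same-numbered pairs and as a block in an alternative fit. The main limma fit and the exact permutation tests did not use the pairing. No source used here says what the numbers mean. Alternatives were other scalings, a pseudocount, other filters and gene summaries, another variance model, the replicate block and leaving out arrays. The number of arrays limits the precision.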

Additional observations from a re-analysis of the deposited data

How the results depend on the processing

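The differences of the 6 tested member probe sets stayed negative under every alternative run, between -0.05 and -1.02, and none passed after adjustment. With the replicate number as a block, 0 members and 0 probe sets in all were called, and limma p-values of the member probe sets were 0.0291 and 0.0254 for Acsl3, 0.0265, 0.00615 and 0.00171 for Acsl4 and 0.225 for Acsl5, so the block changed no call after adjustment. The count of all features called, 0, was 1 with the brightest probe set per gene, 1 with the mean of probe sets per gene and 2 with a trended and robust variance; without single arrays it was 0 to 1. Member probe sets lower at an unadjusted p under 0.05, a count added after seeing the data, numbered 5 in the main setting, 4 with no filter on dim probe sets, 1 of 2 with the filter at the 75th percentile, 2 of 3 with the brightest and 2 of 3 with the mean of probe sets per gene, where fewer are tested; without single arrays they were 3 to 4. The medians of other synthetases, thioesterases, binding proteins, mitochondrial import and PPAR targets changed sign under some settings, that of the acyltransferases stayed between -0.14 and -0.02, and that of synthesis and desaturation between -0.64 and -0.24. Acsbg1, not tested, changed sign with the array left out. Signals are linear with no detection calls, so the dim probe sets of Acsl6 and Acsbg1 carry no reliable difference.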

Other observations

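Other members of the bubblegum branch were also dim. Acsbg2 read 24.7, 21.4 and 88.6 in controls and 28.4, 10.5 and 26.4 in Scap-deleted lungs. Acsbg3, looked at after its values were seen, read 371.3, 239 and 329 in controls and 167.4, 302.6 and 352.4 in Scap-deleted lungs. The groups overlapped in both genes, and neither was bright enough to test.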
